A study of Mus musculus with 12 samples.

Results

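A set of 10 genes of the FGF and ERK pathway was followed through the change of mouse embryonic stem cells (ESCs) into epiblast-like cells (EpiLCs). The 10 genes, found by symbol among the 22462 genes of the count table, were the ligands Fgf4 and Fgf5, the receptors Fgfr1 and Fgfr2, the feedback inhibitors Dusp6, Spry2 and Spry4, and the transcription factors Etv4, Etv5 and Egr1. All 10 passed the filter on low values (at least 3 CPM, the count relative to library size, in at least 3 libraries) and were among the 11750 genes tested. ESCs were kept in 15% fetal bovine serum with LIF and 2i, a pair of inhibitors made up of PD0325901, which blocks the ERK kinases' activator MEK, and CHIR99021, which blocks the kinase GSK3. EpiLCs were made from ESCs that were plated for 24 hours, washed free of LIF and 2i, and collected about 56 hours after that. ESCs were thus under MEK inhibition and EpiLCs were not, and the loss of the inhibitor cannot be told apart from the change of cell state. From each cell type there were 3 libraries of ribosome protected fragments (RPFs, stretches of mRNA that a translating ribosome covers and a nuclease spares) and 3 libraries of total RNA, 12 in all. The labels name no line or genotype, and the study describes its differentiation on 1 mouse line, V6.5 ESCs with fluorescent reporters of 2 miRNA clusters. The study calls the replicates biological, and neither it nor the titles say how the cultures were kept apart, so p-values measure the spread between these samples.

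FGF ligands bind receptor tyrosine kinases at the cell surface, and the receptors pass the signal through adaptors to RAS, RAF, MEK and ERK. ERK switches on a set of target genes, among them transcription factors of the ETS and EGR families and inhibitors of the pathway itself, the Sprouty proteins and the dual specificity phosphatases, which close a negative feedback loop. In mouse pluripotent cells Fgf4 is the main autocrine ligand that primes ESCs to leave the naive state, Fgf5 is a classical marker of the epiblast after implantation, and blocking MEK helps to hold cells in the naive state.

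Total counts ranged from 2681439 to 14655015 per library, and 3 counts correspond to 1.12 CPM in the shallowest library and to 0.205 CPM in the deepest. The markers followed the labels, with all 8 naive genes lower and all 6 EpiLC genes higher in EpiLCs in both assays. ESC total RNA replicate 2 held the highest sum of EpiLC markers among ESC total RNA libraries (312 CPM, against 205 and 243 CPM), and replicate 1 of the EpiLCs held the highest sum of naive markers in both assays (99.5 CPM in total RNA and 199.9 CPM in RPF). The 6 fibroblast markers summed to 1.97 to 2.19 CPM in ESC and 13.4 to 15.0 CPM in EpiLC total RNA, and to 6.38 to 7.16 and 34.2 to 41.4 CPM in RPF, with 3 of them higher in EpiLCs, Thy1 and Col1a1 leading the RPF sum and Postn at 0 in every library. Of 5 neural markers 2 were higher in EpiLCs, with sums of 128 to 157 CPM in ESC and 303 to 376 CPM in EpiLC total RNA. Primitive endoderm markers summed to at most 10.6 CPM in any library. Mesoderm and primitive streak markers summed to at most 30.6 CPM, with both tested ones, Eomes and Gsc, lower in EpiLCs in both assays, as were Sox2, of the 2 genes used as markers of both states, and 1 of 2 trophoblast markers tested. These shifts run with cell type, as do the members described here, and their part in the results was not tested. The 3 fibroblast markers called and the neural marker Pax6 passed the filter through EpiLCs alone. The naive marker Prdm14 and Gsc passed it through ESCs alone. For these genes the filter favoured the direction seen.

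Most members were higher in EpiLCs, with the 3 largest differences at Fgf5, Egr1 and Dusp6, while Fgf4 and Etv4 were lower. A call required an adjusted p below 0.05 (voom and limma, Benjamini-Hochberg over all 11750 genes) together with an absolute log2 fold change above 1. In total RNA, 4 of the 10 members (Fgf5, Fgfr2, Dusp6 and Egr1) were called higher in EpiLCs, where 14.6% of all genes tested were, and 1 member (Fgf4) was called lower, where 9.70% were. In RPF, 5 members (Fgf5, Fgfr2, Dusp6, Egr1 and Spry4) were called higher, against 15.4% of all genes, and Fgf4 was again called lower, against 10.6%. In either direction this makes 5 of 10 members in total RNA, against 24.3% of all genes, and 6 of 10 in RPF, against 26.0%. With the adjusted p alone and no fold limit, 8 members were higher in total RNA, against 34.6% of all genes, and 2 were lower, against 30.7% (65.4% in either direction). In RPF 7 were higher, against 31.1%, and 2 lower, against 28.7% (59.8% in either direction). All 10 members had the same direction in both assays. Of the members called higher, Fgf5, Egr1, Fgfr2 and Spry4 passed the filter only through EpiLCs, since Fgf5 and Egr1 reached 3 CPM (before libraries were scaled) in 0 ESC libraries and Fgfr2 and Spry4 in 2, so that the filter favoured higher EpiLC values for them and the counts of higher members are a description only. The 3 ESC and 3 EpiLC libraries did not overlap for 10 of 10 members in total RNA and for 9 of 10 in RPF, but groups failed to overlap for 70.3% and 63.1% of all genes tested. Because the samples are bulk RNA, fewer cells expressing a gene and less RNA of it per cell cannot be told apart.

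**Figure D1:**
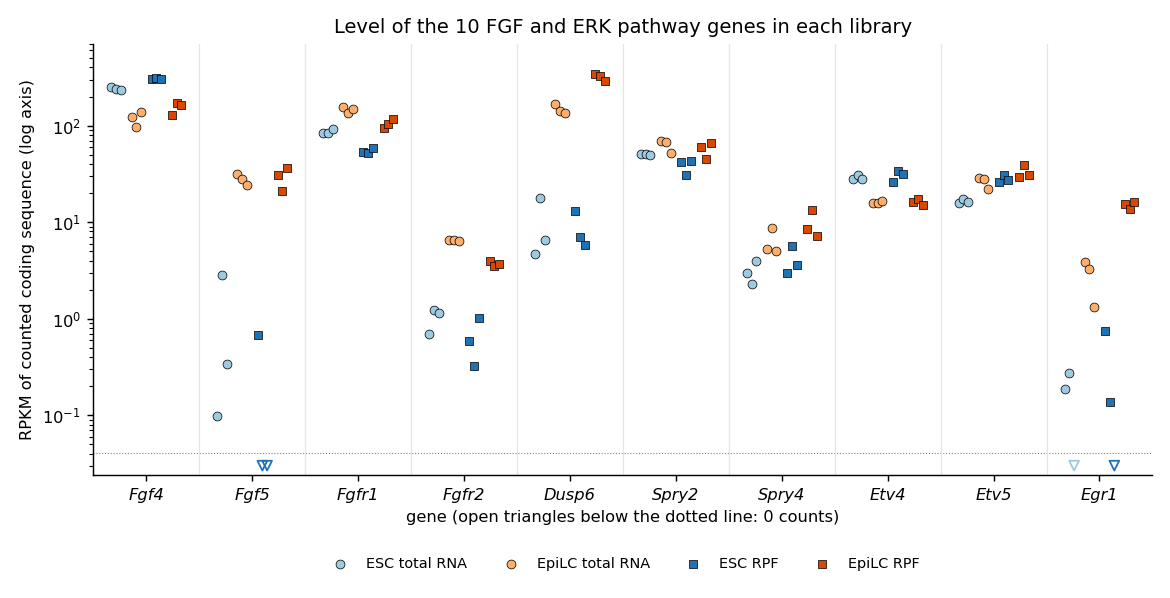
Level of each member in each of the 12 libraries, as RPKM, which is CPM per kilobase of counted coding sequence (log axis); circles are total RNA, squares are RPF, blue is ESC and orange is EpiLC, and open triangles mark libraries with 0 counts. Dusp6 lies between 4.64 and 17.9 RPKM in ESC total RNA and between 136 and 165 RPKM in EpiLC total RNA, while Fgf4 is among the highest members in all 4 groups.

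**Figure D2:**
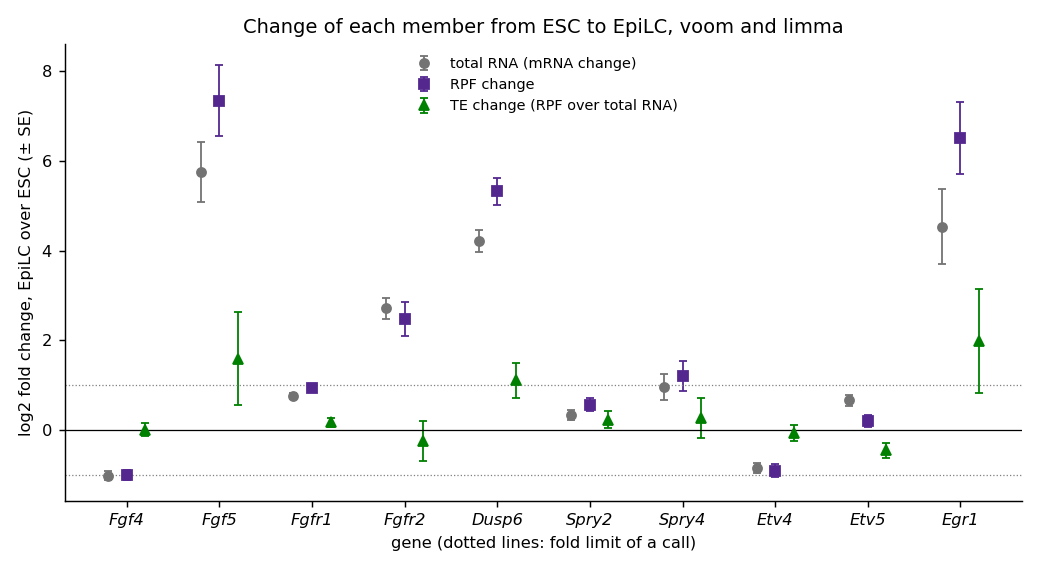
Log2 fold change of each member, EpiLC over ESC, in total RNA (grey circles), RPF (purple squares) and translational efficiency (TE, RPF signal divided by total RNA signal, green triangles), with bars of 1 SE from voom and limma on 12 libraries and dotted lines at the fold limit. Fgf5, Dusp6 and Egr1 stand highest, with RPF changes of 7.35, 5.32 and 6.52, Fgf4 and Etv4 lie below 0 in both assays, and the efficiency changes of 7 members lie between -0.5 and 0.5.

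The ligands Fgf4 and Fgf5 moved in opposite directions. Fgf4 (ENSMUSG00000050917.5, counted over 564 bases of coding sequence at chr7:144861550-144862941, plus strand, mm10) stood at 142, 136 and 133 CPM in the 3 ESC total RNA libraries and at 68.5, 54.6 and 78.6 CPM in EpiLCs. Its RPF values were 171, 177 and 170 CPM in ESCs and 72.6, 97.0 and 92.5 CPM in EpiLCs. Every ESC library was thus above every EpiLC library in both assays, and the fall was close to the fold limit, with a log2 fold change of -1.02 ± 0.09 (SE; adjusted p = 6.2e-10) in total RNA and -1.01 ± 0.11 (adjusted p = 1.4e-08) in RPF. Fgf4 therefore lost its call in several alternative fits, with EpiLC total RNA replicate 2 left out (-0.91) or EpiLC RPF replicate 1 left out (-0.88) among them, while its direction held in every fit in both assays.

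Fgf5 (ENSMUSG00000029337.2, 750 counted bases at chr5:98254457-98275552, plus strand) was near the detection limit in ESCs. It had 1, 25 and 3 counts in ESC total RNA (0.0729, 2.11 and 0.257 CPM) and 4, 0 and 0 counts in ESC RPF, and the highest of these values was in ESC total RNA replicate 2, the library with the most EpiLC marker signal in its group. In EpiLCs it reached 23.7, 21.0 and 18.3 CPM in total RNA and 23.2, 15.6 and 27.4 CPM in RPF, far above any ESC library. The log2 fold change was 5.76 ± 0.67 in total RNA (adjusted p = 4.1e-08) and 7.35 ± 0.80 in RPF (adjusted p = 2.1e-08), the 8th largest change in RPF among all genes tested. Sizes this large rest on few ESC counts and moved with single libraries, from 4.72 without ESC total RNA replicate 1 to 6.88 without ESC total RNA replicate 2, and from 6.54 without ESC RPF replicate 3 to 8.35 without ESC RPF replicate 1. Summed over libraries, Fgf5 was 27.7-fold higher in EpiLC total RNA (95% interval 19.1 to 41.7) and 137-fold higher in EpiLC RPF (52.9 to 506), intervals that cover counting error only.

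Sequence upstream of the start is shown for both ligands, which moved apart, and for Dusp6, the member with the highest footprint level in EpiLCs. RefSeq start sites (GRCm38.p6, the same assembly as mm10) were matched for 6 of the 10 members. Each window is the 250 bases before the start, 5′ to 3′ on the gene's strand: Fgf4 at chr7:144861136-144861385 (plus strand), Fgf5 at chr5:98253934-98254183 (plus) and Dusp6 at chr10:99262981-99263230 (plus). Capitals mark matches on either strand to GGGCGG, known as the GC box, or TATANA, which resembles the core of the TATA box (overlapping matches merged). The ETS motif CCGGAAG was searched too.
Fgf4: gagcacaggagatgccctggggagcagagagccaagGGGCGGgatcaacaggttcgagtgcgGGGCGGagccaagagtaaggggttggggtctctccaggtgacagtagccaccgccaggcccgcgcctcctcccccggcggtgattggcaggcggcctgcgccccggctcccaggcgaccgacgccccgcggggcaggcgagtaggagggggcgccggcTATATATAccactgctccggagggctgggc
Fgf5: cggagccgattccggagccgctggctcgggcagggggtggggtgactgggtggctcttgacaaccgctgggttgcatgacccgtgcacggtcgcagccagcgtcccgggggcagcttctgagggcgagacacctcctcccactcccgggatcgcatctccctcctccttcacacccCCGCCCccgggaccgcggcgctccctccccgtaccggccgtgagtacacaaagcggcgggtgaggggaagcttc
Dusp6: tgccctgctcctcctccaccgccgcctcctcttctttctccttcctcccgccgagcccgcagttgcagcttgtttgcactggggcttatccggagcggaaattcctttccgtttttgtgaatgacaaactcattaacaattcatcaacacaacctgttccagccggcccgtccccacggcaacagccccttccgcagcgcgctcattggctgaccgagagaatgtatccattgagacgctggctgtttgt
The Fgf4 window held 2 GC boxes, 214 and 188 bases before the start, and a TATA-like run of overlapping matches 30 and 28 bases before it. The Fgf5 window held 1 GC box, on the other strand, 74 bases before the start, and no TATA-like match, and the Dusp6 window held neither. Of 32851 RefSeq promoter windows of the same length, 32.7% held GGGCGG, 22.6% held TATANA and 6.91% held CCGGAAG, which matched in none of the 3 windows. Both ligand windows were rich in G and C (71.2% for Fgf4 and 70.8% for Fgf5, above 92.2% and 91.7% of all windows), with 21 and 24 CpG dinucleotides, while Dusp6 was at 56.4% with 16.

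Fgf4 held the largest share of the FGF family's signal in all 12 libraries, but a much smaller one in EpiLCs. Within each library, the per-length signal of the 22 genes of the FGF family (Fgf4, Fgf5 and 20 others, among them Fgf11, Fgf12, Fgf13 and Fgf14, whose products stay inside the cell) was added up and each gene's share taken, which does not depend on how libraries are scaled. Fgf4 made up 90.5%, 89.5% and 89.1% of the family's signal in ESC total RNA and 50.4%, 46.0% and 60.2% in EpiLC total RNA. In RPF its share was 89.3%, 86.7% and 88.8% in ESCs and 44.6%, 53.1% and 53.5% in EpiLCs. Fgf5 took 12.3% ± 1.5 (SD, n = 3) of the EpiLC total RNA signal and 9.69% ± 2.89 of the RPF signal, from 0.404% ± 0.558 and 0.0671% ± 0.116 in ESCs. Fgf15 and Fgf17 had larger mean shares than Fgf5 in EpiLC RPF, at 12.8% ± 2.0 and 12.6% ± 4.8. In EpiLC total RNA they held less, at 7.83% ± 1.22 and 6.65% ± 2.20. In ESCs Fgf17 came next after Fgf4, at 3.07% ± 0.33 in total RNA and 5.66% ± 0.80 in RPF. Over the 18 secreted family members alone, Fgf4 held 91.0% ± 0.7 in ESC and 57.0% ± 6.5 in EpiLC total RNA, and 89.6% ± 1.2 and 53.4% ± 5.2 in RPF. The total of the 22 genes was 270 ± 7 RPKM in ESC and 228 ± 16 RPKM in EpiLC total RNA, and 348 ± 13 and 306 ± 18 RPKM in RPF.

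**Figure D3:**
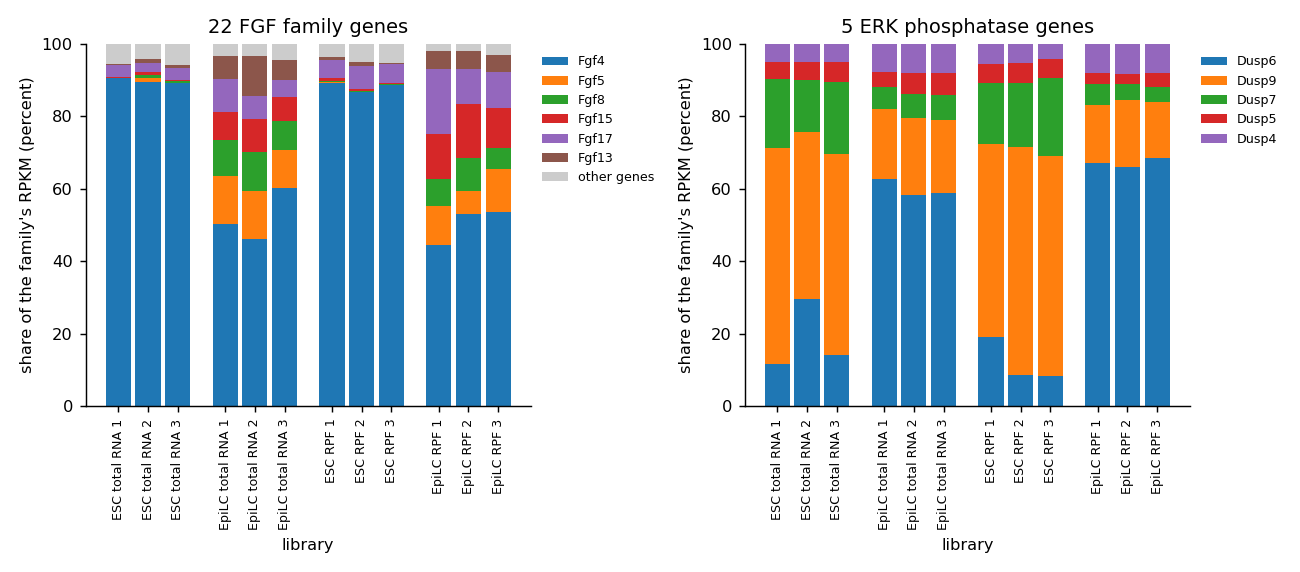
Share of each gene in the per-length signal (RPKM) of 22 FGF family genes (left) and of 5 ERK phosphatase genes (right) in each of the 12 libraries, in percent. Fgf4 fills 86.7% to 90.5% of the ESC bars and 44.6% to 60.2% of the EpiLC bars, and Dusp6 fills 8.34% to 29.5% of the ESC bars and 58.3% to 68.5% of the EpiLC bars.

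Both receptors were higher in EpiLCs, Fgfr2 by more and from a far lower level. Fgfr1 (ENSMUSG00000031565.18, chr8:25532383-25573921, plus strand), the receptor with the most signal in both cell types, stood at 221, 218 and 242 CPM in ESC and 404, 354 and 387 CPM in EpiLC total RNA. Its RPF values were 139, 136 and 155 CPM in ESCs and 249, 271 and 305 CPM in EpiLCs. All EpiLC libraries lay above all ESC libraries, with log2 fold changes of 0.76 ± 0.07 (adjusted p = 4.1e-10) in total RNA and 0.93 ± 0.09 (adjusted p = 1.1e-09) in RPF, both under the fold limit.

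Fgfr2 (ENSMUSG00000030849.18, chr7:130163959-130261869, minus strand), whose splice forms bind different ligands but were counted together here, went from 1.82, 3.20 and 3.00 CPM to 16.96, 17.15 and 16.84 CPM in total RNA. In RPF it went from 1.54, 0.851 and 2.66 CPM to 10.4, 9.13 and 9.76 CPM. The EpiLC values were close to one another and the ESC values were low and spread, and the log2 fold change was 2.72 ± 0.23 (adjusted p = 2.1e-10) in total RNA and 2.47 ± 0.38 (adjusted p = 4.0e-06) in RPF. Of the per-length signal of Fgfr1 to Fgfr4, Fgfr1 held 97.2% ± 0.4 in ESC and 93.4% ± 0.6 in EpiLC total RNA, and Fgfr2 held 1.139% ± 0.314 and 4.150% ± 0.287. Fgfr2 thus stayed a minor receptor next to Fgfr1 in EpiLCs.

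Dusp6, a cytoplasmic phosphatase that removes the activating phosphates from ERK and is itself an ERK target, went from among the lower members to the top. Dusp6 (ENSMUSG00000019960.8, 1101 counted bases at chr10:99263737-99266299, plus strand) stood at 5.10, 19.7 and 7.20 CPM in ESC total RNA and 182, 154 and 150 CPM in EpiLC total RNA. Its RPF values were 14.4, 7.66 and 6.42 CPM in ESCs and 375, 362 and 321 CPM in EpiLCs. The ESC libraries differed from one another more than the EpiLC libraries did, with ESC total RNA replicate 2 and ESC RPF replicate 1 highest, and every EpiLC value was far above every ESC value. The log2 fold change was 4.21 ± 0.25 (adjusted p = 1.3e-13) in total RNA and 5.32 ± 0.30 (adjusted p = 1.1e-13) in RPF, 18.5-fold and 39.9-fold. Without ESC total RNA replicate 2, EpiLC total RNA replicate 1 and EpiLC RPF replicate 1, they were 4.58 and 5.26. These are called the 3 libraries that stand apart, each with the most markers of the other state in its own group. ESC RPF replicate 1 also held the most EpiLC markers in its group (254 CPM, against 249 and 212 CPM) but was kept in that fit. The fit without the 3 libraries was added after the data were seen.

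Dusp6 also led its family in EpiLCs but not in ESCs. Among the 5 ERK phosphatase genes Dusp4, Dusp5, Dusp6, Dusp7 and Dusp9, Dusp6 held 18.3% ± 9.7 of the per-length signal in ESC total RNA and 59.9% ± 2.5 in EpiLC total RNA, and 11.96% ± 6.06 and 67.27% ± 1.19 in RPF. Dusp9 led in ESCs with 53.9% ± 6.9 of total RNA signal and held 20.3% ± 0.9 in EpiLCs, although its own level was higher there (log2 fold change 0.93 ± 0.11, adjusted p = 5.1e-08, under the fold limit). The family total was 49.3 ± 10.5 RPKM in ESC and 245 ± 16 RPKM in EpiLC total RNA.

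Among the Sprouty genes, which encode inhibitors of signalling from receptor to RAS and RAF, the members Spry2 and Spry4 differed much less than Dusp6. Spry2 (ENSMUSG00000022114.4, chr14:105892803-105893705, minus strand) stood at 45.8, 45.9 and 44.3 CPM in ESC and 62.9, 60.9 and 47.4 CPM in EpiLC total RNA, and at 37.7, 27.9 and 39.0 CPM in ESC and 54.7, 40.7 and 58.9 CPM in EpiLC RPF. Groups did not overlap, though EpiLC total RNA replicate 3 and EpiLC RPF replicate 2 came close to the ESC range, and the log2 fold change was 0.33 ± 0.11 (adjusted p = 0.011) in total RNA and 0.56 ± 0.15 (adjusted p = 0.0022) in RPF, under the fold limit. In total RNA the adjusted p of Spry2 rose to 0.13 without EpiLC total RNA replicate 1 and to 0.36 without the 3 libraries that stand apart. The adjusted p was above 0.05 with DESeq2 (0.057) and the GC correction (0.089) too, while the direction of Spry2 held. Spry4 (ENSMUSG00000024427.6, chr18:38589806-38590663, minus strand) was low throughout, at 2.55, 1.94 and 3.43 CPM in ESC and 4.54, 7.53 and 4.35 CPM in EpiLC total RNA, and at 2.56, 4.89 and 3.12 CPM in ESC and 7.26, 11.4 and 6.19 CPM in EpiLC RPF. Replicate 2 was the highest EpiLC library in both assays. The log2 fold change of Spry4 in RPF, 1.21 ± 0.33 (adjusted p = 0.0030), was called. That in total RNA, 0.95 ± 0.29 (adjusted p = 0.0061), was just short of the fold limit. The total RNA change was called with the replicate number as a block (1.08, adjusted p = 0.0023), with edgeR, and in 3 of 12 fits without a single library. Over the alternatives its adjusted p ran from 0.0023 to 0.053.

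The paired ETS factors Etv4 and Etv5, both textbook targets of FGF signalling, moved apart. Etv4 (ENSMUSG00000017724.14, chr11:101770366-101784531, minus strand) stood at 39.3, 43.9 and 39.4 CPM in ESC and 22.1, 22.4 and 23.5 CPM in EpiLC total RNA. In RPF it stood at 36.8, 47.9 and 44.7 CPM in ESCs and 23.0, 24.3 and 21.2 CPM in EpiLCs. Etv4 was lower in every EpiLC library, with log2 fold changes of -0.85 ± 0.11 (adjusted p = 2.0e-07) and -0.91 ± 0.15 (adjusted p = 7.4e-06), under the fold limit, and passed that limit after a correction for GC content added once the data had been seen (-1.03 and -1.16).

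Etv5 (ENSMUSG00000013089.15, chr16:22383470-22436288, minus strand) stood at 24.6, 27.0 and 24.9 CPM in ESC and 44.0, 42.6 and 33.6 CPM in EpiLC total RNA, a log2 fold change of 0.66 ± 0.12 (adjusted p = 2.0e-05). In RPF it stood at 40.0, 47.9 and 41.7 CPM in ESCs and 44.8, 60.1 and 47.1 CPM in EpiLCs, where the groups overlapped and the log2 fold change of 0.20 ± 0.13 did not pass (adjusted p = 0.18). The per-length ratio of Etv5 to Etv4 within a library was 0.574, 0.564 and 0.579 in ESC and 1.83, 1.74 and 1.31 in EpiLC total RNA, and 0.998, 0.918 and 0.856 in ESC and 1.79, 2.27 and 2.04 in EpiLC RPF. Etv4 thus led in ESC total RNA and Etv5 led in EpiLCs in both assays, while in ESC RPF they lay close, at 30.4 ± 4.0 and 28.0 ± 2.7 RPKM, with overlapping libraries. The log2 ratio differed by 1.49 in total RNA and 1.13 in RPF, each with an exact 2-sided permutation p of 0.1, the smallest that 3 against 3 libraries can give.

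Egr1, a zinc finger factor induced within minutes of ERK activation, was almost silent in ESCs. Egr1 (ENSMUSG00000038418.7, chr18:34861534-34863768, plus strand) had 4, 5 and 0 counts in ESC total RNA and 9, 1 and 0 counts in ESC RPF, none above 1.15 CPM. In EpiLCs it stood at 6.01, 5.13 and 2.06 CPM in total RNA and at 23.8, 21.3 and 25.1 CPM in RPF. All EpiLC libraries lay above all ESC libraries, with log2 fold changes of 4.53 ± 0.84 (adjusted p = 4.0e-05) in total RNA and 6.52 ± 0.81 (adjusted p = 1.8e-07) in RPF. These sizes moved with single ESC libraries, from 3.48 without total RNA replicate 3 to 5.18 without total RNA replicate 2, and from 5.10 without RPF replicate 3 to 7.62 without RPF replicate 1. Over summed counts it was 19.3-fold higher in EpiLC total RNA (95% interval 9.90 to 43.2) and 55.8-fold higher in EpiLC RPF (30.0 to 118), again for counting error only.

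The order of the members by level per length differed between the cell types, above all in the place of Dusp6. In ESC total RNA the order was Fgf4 at 243 ± 8 RPKM, Fgfr1 at 86.9 ± 5.0, Spry2 at 50.2 ± 1.0, Etv4 at 28.9 ± 1.9, Etv5 at 16.5 ± 0.9, Dusp6 at 9.70 ± 7.18, Spry4 at 3.08 ± 0.87, Fgf5 at 1.08 (0.0972 to 2.81 between libraries), Fgfr2 at 1.02 ± 0.28 and Egr1 at 0.153 ± 0.139 (SD, n = 3). Of these neighbours, Etv5 and Dusp6, Spry4 and Fgf5, and Fgf5 and Fgfr2 overlapped between libraries. In EpiLC total RNA Dusp6 (147 ± 16 RPKM), Fgfr1 (146 ± 10) and Fgf4 (119 ± 21) overlapped at the top, ahead of Spry2 at 63.2 ± 9.3, and Fgf5 at 28.0 ± 3.6 overlapped with Etv5 at 26.0 ± 3.7, as did Fgfr2 at 6.47 ± 0.06 with Spry4 at 6.38 ± 2.08. Egr1 remained last, at 2.83 ± 1.33 RPKM.

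In RPF the EpiLC order was led by Dusp6 alone, at 320 ± 25 RPKM, above 96.3% of the genes tested. Fgf4 at 155 ± 23 RPKM and Fgfr1 at 105 ± 11 RPKM followed without overlap. Egr1 at 15.0 ± 1.3 RPKM overlapped with Etv4 at 16.1 ± 1.1 RPKM there, whereas in EpiLC total RNA it was the lowest member. In ESC RPF Fgf4 led at 307 ± 7 RPKM, Dusp6 was at 8.61 ± 3.88 RPKM, and Fgfr2, Egr1 and Fgf5 overlapped at the bottom, between 0.228 and 0.641 RPKM on average.

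No member was called for TE, the translational efficiency. By voom and limma 0 of 10 members were called for TE, where 0.255% of all genes were, and edgeR and DESeq2 also called 0. At an unadjusted p below 0.05, voom and limma gave 2 members, Dusp6 and Etv5, edgeR gave 2 and DESeq2 gave 1. The intervals were wide for members with few ESC counts. The TE change of Dusp6 was 1.11 on the log2 scale (95% interval 0.31 to 1.90, adjusted p = 0.17), that of Egr1 was 1.99 (-0.41 to 4.39, adjusted p = 0.47) and that of Fgf5 was 1.59 (-0.56 to 3.73, adjusted p = 0.53).

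For the well-counted members the intervals were narrow. The TE change of Fgf4 was 0.01 (-0.28 to 0.30, adjusted p = 0.99), that of Fgfr1 was 0.17 (-0.06 to 0.39, adjusted p = 0.53), that of Etv4 was -0.06 (-0.43 to 0.31, adjusted p = 0.92) and that of Spry2 was 0.23 (-0.15 to 0.61, adjusted p = 0.63). Etv5, with a larger estimated rise in total RNA than in RPF, had a TE change of -0.45 (-0.81 to -0.10, adjusted p = 0.22), which was not called. Spry4 and Fgfr2 had intervals of -0.65 to 1.18 and -1.16 to 0.67.

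The Dusp6 value depended on single ESC libraries. Without ESC total RNA replicate 1, its lowest total RNA value, the TE change became 1.55 and was called (adjusted p = 0.033), and without ESC total RNA replicate 2, its highest, it became 0.56 (adjusted p = 0.51), the lowest and highest adjusted p of any alternative tried. The TE of Dusp6 in ESCs, with RPF and total RNA matched by replicate number, was 1.48, -1.36 and -0.16 on the log2 scale, a spread in which the same libraries stand out. In EpiLCs it was 1.04, 1.23 and 1.10, close together.

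TE as a level within a cell type also set members apart. In EpiLCs Egr1 had a log2 TE of 1.98, 2.04 and 3.57, a mean of 2.53 ± 0.90 (SD, n = 3) that was above 99.6% of the genes tested, and Dusp6 had a mean of 1.12 ± 0.10, above 92.7%. The receptors lay at the other end, Fgfr1 at -0.48 ± 0.20 and Fgfr2 at -0.80 ± 0.10, above 30.8% and 20.3% of genes. The study calls the total RNA matched to the RPFs but does not say that a number marks a shared culture. Over all genes, deviations of same-numbered libraries correlated at -0.12 to 0.12, which cannot show whether they share a culture. EpiLC replicate 1 held the highest naive marker sum in both assays. The pairs here are matched by number, and whether they share a culture is not known.

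**Figure D4:**
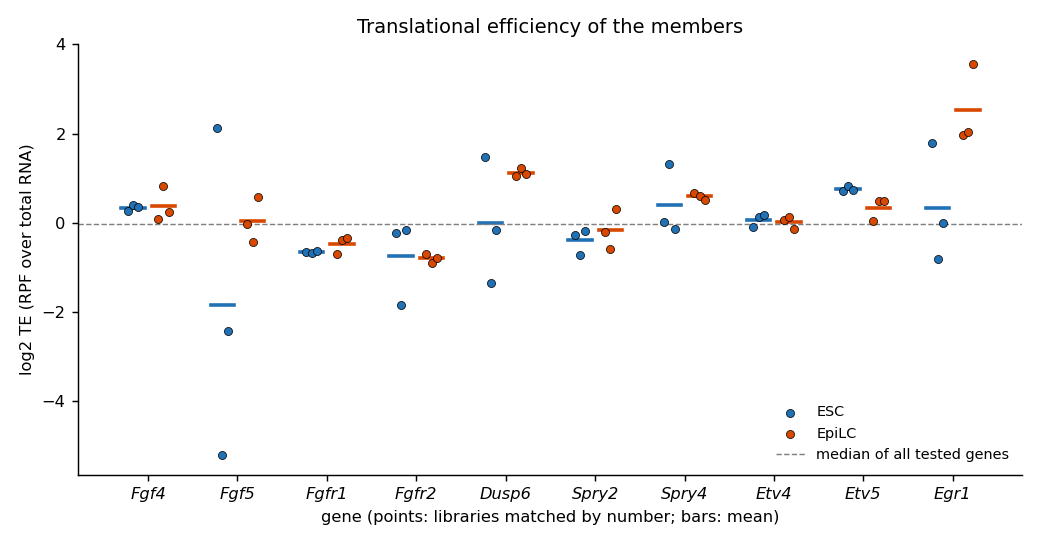
Log2 TE of each member in ESCs (blue) and EpiLCs (orange), with points for RPF and total RNA libraries matched by number, bars for their mean and a dashed line at the median of all tested genes. Egr1 in EpiLCs is highest, with a mean of 2.53, Fgfr1 and Fgfr2 lie below the line in both cell types, and the ESC points of Fgf5 run from -5.22 to 2.12.

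The wider pathway was described with 5 lists of genes by role, 78 in all without the members, of which 55 passed the filter on low values, 7 of them through EpiLCs alone and 4 through ESCs alone, so that the counts below describe the genes that passed and not the lists as a whole. In total RNA 20 of the 55 were called higher and 2 lower, 40.0% against 24.3% of all genes tested, and in RPF 17 were higher and 5 lower, 40.0% against 26.0%. The median log2 fold change of the 55 was 0.63 in total RNA and 0.67 in RPF, where the medians of all genes tested were 0.03 and 0.01. For TE voom and limma called 0 of 55, edgeR and DESeq2 also called 0, and 7 genes had an unadjusted p below 0.05 in voom and limma.

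Of the 20 other FGF family genes 5 passed the filter, and Fgf8, Fgf15 and Fgf13 were called higher in both assays, where 14.6% and 15.4% of all genes were. All 3 passed the filter through EpiLCs alone, with 0 ESC libraries at 3 CPM, and so had to be higher there. Fgf8, a ligand of the primitive streak and of many signalling centres, was higher by 4.46 ± 0.47 in total RNA and 5.44 ± 0.70 in RPF on the log2 scale, Fgf15, an endocrine type ligand, by 4.01 ± 0.42 and 4.45 ± 0.41, and Fgf13, one of those that stay inside the cell, by 3.16 ± 0.35 and 2.81 ± 0.41. Without ESC total RNA replicate 1 the Fgf8 value in total RNA was 3.45, without ESC total RNA replicate 2 it was 5.09, and without ESC RPF replicate 3 the Fgf15 value in RPF was 3.81. Fgf3, a secreted ligand whose gene lies near Fgf4 and Fgf15 on chromosome 7, passed the filter through ESCs alone, which favoured a fall. It fell in RPF with -1.72 ± 0.51 (adjusted p = 0.0055) and had -0.69 ± 0.34 in total RNA, which did not pass (adjusted p = 0.080). The RPF call of Fgf3 was lost without EpiLC RPF replicate 1 (-1.30, adjusted p = 0.051), the highest adjusted p among its alternatives. Fgf17, which also passed, was higher by 0.93 ± 0.26 in total RNA and 0.998 ± 0.233 in RPF, under the fold limit. The 15 genes that did not pass the filter had at most 41 counts in any library.

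Of the 5 other receptors and co-receptors 4 passed the filter, Fgfr3 through EpiLCs alone and Klb and Fgfr4 through ESCs alone. In total RNA 2 were called higher and 1 lower, and in RPF 1 was higher and 1 lower, against the shares of all genes given above. Fgfr3 was higher by 2.71 ± 0.44 in total RNA and 3.66 ± 0.75 in RPF, a value that fell to 1.73 without ESC RPF replicate 3 and rose to 4.26 without ESC RPF replicate 1. Fgfrl1, a receptor without a kinase domain, was higher by 1.36 ± 0.14 in total RNA. Klb, the co-receptor for endocrine FGFs, fell in both assays, from 139 counts to 1 in total RNA and from 135 to 4 in RPF, summed over 3 libraries. That was 112-fold lower in total RNA (95% interval 19.7 to 4446) and 18.4-fold lower in RPF (7.03 to 68.6), intervals that cover counting error only. Fgfr4 had a log2 fold change of -0.40 ± 0.33 in total RNA that did not pass (adjusted p = 0.30).

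Of the cascade from adaptors to ERK, 4 of 23 genes were called in each assay. All 23 listed genes passed the filter, 3 were called higher and 1 lower in total RNA (17.4%, against 24.3% of all genes), 2 were higher and 2 lower in RPF (17.4%, against 26.0%), and the median log2 fold change was 0.07 in total RNA and 0.04 in RPF. The adaptor Shc1 was higher by 1.21 ± 0.07 in total RNA, and the ERK kinase gene Mapk3 by 1.18 ± 0.10 in total RNA and 1.05 ± 0.11 in RPF. The latter pair sat close to the fold limit: for Mapk3, RPF gave 0.99 without ESC RPF replicate 2 and 0.87 with the GC correction, and total RNA gave 0.98 without the 3 libraries that stand apart. The scaffold Ksr1 fell, with -1.20 ± 0.15 and -1.32 ± 0.24, and the adaptor Frs3 fell in RPF with -1.10 ± 0.43 (adjusted p = 0.030), a call lost without EpiLC RPF replicate 3 (-0.62, adjusted p = 0.26) and without ESC RPF replicate 1 (-0.97, adjusted p = 0.073).

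Among feedback inhibitors other than Dusp6, Spry2 and Spry4, many were higher in EpiLCs. Of 12 tested, 6 were called higher and 0 lower by voom and limma in both assays, where 14.6% and 15.4% of all genes were higher. Without the fold limit 11 were higher in total RNA, against 34.6% of all genes, and 10 in RPF, against 31.1%, again with 0 lower. Dusp4 and Dusp5, nuclear phosphatases of ERK, were higher by 3.03 ± 0.22 and 2.34 ± 0.23 in total RNA and by 3.43 ± 0.22 and 2.04 ± 0.25 in RPF, and Spred3, a Sprouty-related inhibitor that passed the filter through EpiLCs alone, by 2.29 ± 0.30 and 2.23 ± 0.37. Spry1 was higher by 1.74 ± 0.14 and 1.82 ± 0.24. Of the per-length signal of Spry1, Spry2 and Spry4, Spry1 held 17.5% ± 2.3 in ESC and 35.0% ± 3.1 in EpiLC total RNA.

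Of 17 further ERK-regulated transcription factors 11 passed the filter. In total RNA 6 were called higher, against 14.6% of all genes, and 0 lower, against 9.70%, by voom and limma. In RPF 5 were higher, against 15.4%, and 1 lower, against 10.6%. Ets1 and Ier3 passed the filter through EpiLCs alone and Elk3 through ESCs alone. Ets1 was higher by 3.77 ± 0.34 in total RNA and 4.73 ± 0.42 in RPF, Myc by 3.63 ± 0.38 and 3.82 ± 0.25, and the AP-1 subunit Jun by 2.55 ± 0.28 and 2.86 ± 0.25. Elk3 fell in RPF, with -2.58 ± 0.69 (adjusted p = 0.0024), from 59 summed counts in ESCs to 6 in EpiLCs. Without single libraries the RPF change of Elk3 ran from -3.36 (without EpiLC RPF replicate 1) to -2.08, with adjusted p up to 0.034. In total RNA Elk3 had -0.46 ± 0.37 (adjusted p = 0.28). Fos and Egr2, immediate early genes like Egr1, did not pass the filter, with at most 25 and 6 counts in any library.

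**Figure D5:**
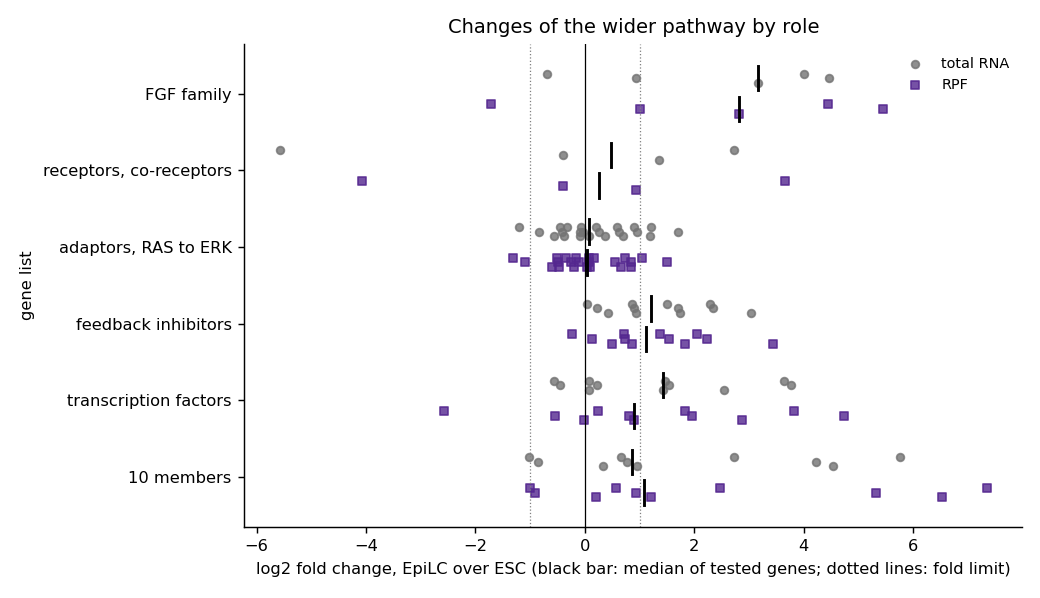
Log2 fold changes, EpiLC over ESC, of the tested genes of each role list and of the 10 members, in total RNA (grey circles) and RPF (purple squares), with black bars at the median of each list and dotted lines at the fold limit. The feedback inhibitors lie to the right of 0 except 1 RPF value, and the cascade from adaptors to ERK centres on 0, with medians of 0.07 and 0.04.

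Genes with the pattern most like that of a member were found by Pearson's r of log2 CPM over the 12 libraries, which share cell type and assay differences, so that r describes likeness only. Closest to Fgf4 were Ephx2 (r = 0.983), Slc25a20 (0.982) and Skap2 (0.980), and 173 genes had r above 0.95. Closest to Fgf5 were Rfx6 (0.996), Pde4b (0.994) and Sema3e (0.993), among 193 such genes. Closest to Dusp6 were Tagln (0.997), Pcdh1 (0.996) and Mmp25 (0.995), among 471 genes.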

How the data were processed

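Per the labels and the study's methods, libraries were made with a TruSeq Ribosome Profiling kit. Per the submitters' processing notes, cutadapt 1.14 removed adapters and STAR 2.5.3a aligned reads to mm10. The authors deposited raw counts per gene, made with featureCounts 1.5.3 over coding sequence without its first 45 bases. RPKM here therefore refers to that coding length. How PCR duplicates were treated is not given in the sources used here.

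Genes with at least 3 CPM in at least 3 of 12 libraries were kept, scaled with TMM factors in edgeR (4.0.16) and fitted with voom and limma (3.58.1, R 4.3.3) on 4 groups without a replicate block. TE change is the interaction of assay and cell type. The study's methods name limma, the interaction and the filter, while voom and TMM were chosen because the values are counts. Alternatives were edgeR's quasi-likelihood test, DESeq2 (1.42.0), other scalings and filters, a replicate block, a GC correction and fits without single libraries. The procedure was tested on simulated data.

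All 10 members were named. From each role list up to 3 called genes with the largest rise and 3 with the largest fall per assay were named, and every gene called for TE. Not every gene chosen in this way is reported here. Fgf17, Fgfr4, Dusp9, Spry1, Fos, Egr2 and Ier3 were named after their values were seen. The members and lists were chosen with earlier results of these data known. Deviations of same-numbered libraries correlated weakly over all genes (-0.12 to 0.12), and no source ties a number to a culture. Numbers were therefore not taken as pairs in the main fit, though the correlations cannot show that the cultures were separate. No 2 libraries of a group were alike within sampling noise.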

Additional observations from a re-analysis of the deposited data

How the results depend on the processing

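Of 30 member results (10 members, each for total RNA, RPF and TE), 20 kept direction and call in all alternatives and 27 kept direction. The 3 others were TE changes near 0. For Fgf4 TE was -0.019 with a replicate block joining RPF and total RNA of a number and -0.044 with the GC correction, and ran from -0.095 to 0.16 without single libraries. For Fgfr2 and Etv4 TE ran from -0.50 to 0.25 and from -0.16 to 0.019 without single libraries. The cause was not tested. Of 44 called values of the role lists all kept direction and 39 kept their call in all alternatives.

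With at least 10 counts required in every library, which removes Fgf5, Fgfr2 and Egr1 from the test, 7 members were tested. Of these, 1 was called higher in total RNA and 2 in RPF, where 967 and 1095 of all 9795 genes tested were. Without the fold limit, 8 of 10 members were higher in total RNA, against 34.6% of all genes. Members called lower numbered 2 in both assays with the GC correction and without the fold limit, Etv4 joining Fgf4, and 0 in RPF with edgeR, with library totals only and without the 3 libraries that stand apart. Without single libraries, 4 to 5 members were higher and 0 to 1 lower in total RNA, 5 to 6 were higher and 0 to 2 lower in RPF, and 0 to 1 were higher for TE.

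Without the fold limit, 34 of the 55 role list genes tested were higher and 9 lower in total RNA, against 34.6% and 30.7% of all genes. In RPF 29 were higher and 12 lower, against 31.1% and 28.7%, and 1 was lower for TE. With at least 10 counts in every library, 45 were tested and 1 was lower in each of total RNA and RPF. Of all 9795 genes in that setting, 628 and 674 were lower. The ranges without single libraries were 20 to 21 and 17 to 19 higher, and 2 and 4 to 5 lower.

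With the replicate number as a block, 5 members were higher in total RNA instead of 4, Spry4 being added, and no other member call differed. The GC correction moved the median RPF change of all genes from 0.01 to -0.10. The GC correction and the fit without 3 libraries were chosen after seeing the data. Depth limits Fgf5, Egr1 and Fgfr2 most, whose ESC RPF counts were lowest. With a prior count of 2 in place of 0.5, log2 TE levels moved by less than their SD, and Gstp3 and Fermt1 became the genes most like Fgf4 and Fgf5.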
